A study of Mus musculus with 6 samples.

Results

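Superoxide dismutases, catalase, glutathione peroxidases, haem oxygenase, the quinone reductase gene *Nqo1* and the Nrf2 gene *Nfe2l2* were followed in chondrocytes of the mouse knee before birth and in the adult. The members were the 10 rows of the deposited expression matrix whose Ensembl identifiers belong to *Sod1*, *Sod2*, *Sod3*, *Cat*, *Gpx1*, *Gpx3*, *Gpx4*, *Hmox1*, *Nqo1* and *Nfe2l2*, of 22032 rows in all. They were chosen by name and function, with earlier results of these data known. Each averaged at least 1 TPM, a length-corrected measure of transcript level, at both stages.

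RNA-seq was performed on 3 embryonic and 3 adult samples of sorted cells, with no treatment and no engineered allele named for either group. Adult cells came from 2 month old male B6 mice and were sorted as CD31-CD45-Ter119-ALP-BMPR1B+. BMPR1B is a bone morphogenetic protein receptor, ALP is alkaline phosphatase, and the other antigens mark endothelial, blood and red cells. The embryonic stage is 16.5 in both sources, which the labels give in weeks and the text of the study as the embryonic day. The day is taken here. The embryonic cells were sorted as negative for lineage antigens and ALP and positive for BMPR1B. The strain and sex of the embryos and the number of animals behind each sample are not given in the sources used here. P-values therefore measure the spread between these samples, which may be technical. Levels are in TPM, which scales each sample to the same total and corrects for transcript length, and which keeps no read depth, so that no counting error could be given. Age is the difference studied, but stage, the sort and any difference in handling between the groups cannot be told apart.

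Superoxide, a by-product of respiration and of oxidase enzymes, is turned into hydrogen peroxide by superoxide dismutases, and catalase and the glutathione peroxidases then break the peroxide down. Nrf2 is a transcription factor that the adaptor Keap1 and the ubiquitin ligase scaffold Cul3 hold at low levels. When Keap1 is modified by reactive compounds, Nrf2 protein accumulates, pairs with a small Maf protein and binds antioxidant response elements in genes such as *Nqo1* and *Hmox1*, whereas Bach1 occupies the same elements as a repressor. Nrf2 is thus controlled largely as a protein, which RNA-seq does not measure. Chondrocytes live in a tissue without vessels, and the enzyme encoded by *Sod3* is secreted and binds the matrix around them.

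To show the regulatory sequence that these genes carry, the 250 bases before the RefSeq start (GRCm38.p6) were read for 8 of the 10 members, all except *Hmox1* and *Sod3*. Printed here are the promoter of *Nfe2l2* itself (chr2:75704664-75704913, minus strand), that of *Sod1* (chr16:90220512-90220761, plus strand), which is the only other member with an antioxidant response element match, and those of *Gpx3* (chr11:54902604-54902853, plus strand) and *Nqo1* (chr8:107403206-107403455, minus strand), which had the largest differences between stages among the 8. Capitals mark each match to the core of the antioxidant response element (TGACNNNGC), the GC box (GGGCGG) or the CCAAT box (CCAAT), on either strand.
Nfe2l2: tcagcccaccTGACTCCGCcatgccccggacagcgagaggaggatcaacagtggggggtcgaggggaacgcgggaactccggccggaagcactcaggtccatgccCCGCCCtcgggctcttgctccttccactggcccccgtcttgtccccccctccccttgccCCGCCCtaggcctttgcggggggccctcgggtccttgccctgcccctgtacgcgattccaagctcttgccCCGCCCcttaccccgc
Sod1: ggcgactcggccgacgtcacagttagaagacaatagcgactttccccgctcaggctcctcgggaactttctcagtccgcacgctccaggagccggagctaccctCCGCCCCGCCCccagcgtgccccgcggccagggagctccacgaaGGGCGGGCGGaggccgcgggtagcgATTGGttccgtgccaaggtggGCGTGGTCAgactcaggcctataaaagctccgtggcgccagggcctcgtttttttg
Gpx3: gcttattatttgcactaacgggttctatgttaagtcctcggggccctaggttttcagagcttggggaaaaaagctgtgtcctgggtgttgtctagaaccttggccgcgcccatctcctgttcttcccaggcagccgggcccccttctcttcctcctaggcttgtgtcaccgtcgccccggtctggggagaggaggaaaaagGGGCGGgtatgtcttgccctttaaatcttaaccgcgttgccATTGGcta
Nqo1: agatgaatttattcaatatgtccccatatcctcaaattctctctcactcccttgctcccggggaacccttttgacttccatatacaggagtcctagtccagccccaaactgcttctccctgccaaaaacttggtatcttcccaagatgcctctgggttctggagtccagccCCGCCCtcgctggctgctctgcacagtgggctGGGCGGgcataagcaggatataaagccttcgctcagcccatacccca

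The element core occurred in 2 of the 8 members with a promoter, against 11.5% of 27025 genes. In *Nfe2l2* it lay 240 to 232 bases before the start (TGACTCCGC), and in *Sod1* 56 to 48 bases before it, as the reverse complement (GCGTGGTCA). *Nqo1*, a classical Nrf2 target, held no match in this window, which says only that these letters do not occur there. GC boxes were found in 7 of the 8 members, against 35.4% of genes, and CCAAT boxes in 5 of the 8, against 37.5% of genes. No AP-1 site (TGANTCA, whose letters can overlap the element core) was found in any of the 8, against 7.82% of genes. *Gpx4* was read in 4 overlapping or separate windows and the other members in 1 each.

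Adult chondrocytes held more RNA for 9 of the 10 genes. The largest differences were in the secreted enzymes *Sod3* and *Gpx3* and in *Nqo1* and *Hmox1*, whereas *Gpx1* and *Nfe2l2* itself differed by less than 2-fold and *Gpx4* did not pass the test. All adult samples lay above all embryonic samples for the same 9 genes. In the limma fit across the 13125 genes whose mean reached 1 TPM, 23.9% of all tested genes were higher in adult cells at a Benjamini-Hochberg adjusted p under 0.05, 21.4% were lower and 45.3% were called in either direction. Of the members 9 were higher and 0 lower, which were also the counts at an unadjusted p under 0.05. The adult samples lay wholly above the embryonic ones for 30.7% of all tested genes and wholly below for 25.9%. Because the members were chosen with earlier results known, the shares of all genes are a description beside them and not an independent test. The median difference of the members was 1.95 on the log2(TPM + 1) scale, and that of all tested genes was 0.16.

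**Figure D1:**
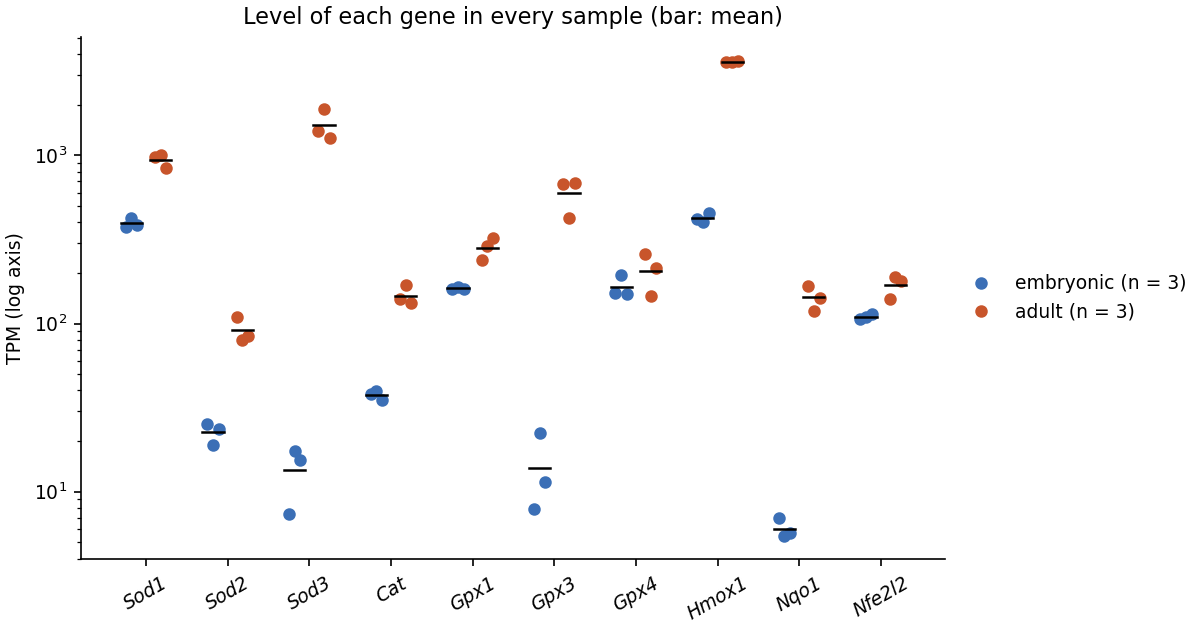
TPM of each of the 10 genes (log axis) in 3 embryonic and 3 adult samples, each point a sample and each bar the mean of a stage. The stages are separate for 9 genes and overlap for *Gpx4*, and adult *Hmox1* points nearly coincide at 3579.8 to 3660.4 TPM.

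Summed over the 10 genes, embryonic samples held 1297.6, 1395.5 and 1355.4 TPM and adult samples 7687.0, 7877.1 and 7527.1 TPM. This was 0.13% to 0.14% of all TPM in the embryo and 0.753% to 0.788% in the adult. *Hmox1* alone made up 28.8% to 33.6% of the embryonic sum and 45.4% to 48.6% of the adult sum. Because these are bulk samples, fewer cells of a type and less RNA per cell cannot be told apart.

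*Nfe2l2* (chromosome 2, 75675513 to 75704641, minus strand, GRCm38), which encodes Nrf2, measured 107, 109 and 114 TPM in the embryonic samples and 139, 190 and 179 TPM in the adult samples. The embryonic values lay close together, and the lowest adult sample was 1.23 times the highest embryonic sample. The difference was 0.60 ± 0.149 (SE) on the log2(TPM + 1) scale, with a limma adjusted p of 0.0104 and a ratio of mean TPM of 1.54. Ranked with its sign, so that every fall counts as smaller, it lay above the differences of 66.2% of tested genes. It was past the threshold of 0.05 but not past one of 0.01. The tested genes whose pattern over the 6 samples was closest to it, by root-mean-square difference of centred log2 values, were *Twsg1* (0.039), *Taf13* (0.047), *Ambra1* (0.061), *Letm2* (0.062) and *Gak* (0.064).

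*Nqo1* (chromosome 8, 107388225 to 107403206, minus strand), which reduces quinones without releasing superoxide and is widely used as a readout of Nrf2, measured 6.97, 5.49 and 5.66 TPM before birth and 168, 119 and 142 TPM in the adult. Every adult sample was at least 17.0 times the highest embryonic one. The difference was 4.35 ± 0.214 (adjusted p = 1.9e-06), a 23.7-fold ratio of means, and 74 tested genes had a larger rise. *Nqo1* was the lowest of the 10 genes in the embryo and in the adult lay near *Cat*, whose samples overlapped its own.

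*Hmox1* (chromosome 8, 75093621 to 75100589, plus strand), the inducible enzyme that opens haem into biliverdin, carbon monoxide and iron, measured 417, 402 and 455 TPM in embryonic samples. Its adult values were 3588.8, 3579.8 and 3660.4 TPM. The adult samples were the tightest of all members, with a coefficient of variation of 1.22%, and lay 7.87 times or more above the highest embryonic sample. The log2 difference was 3.09 ± 0.111 (adjusted p = 4.1e-07), an 8.5-fold ratio of means. By mean TPM over all genes *Hmox1* stood at rank 364 in the embryo and rank 20 in the adult. The constitutive haem oxygenase gene *Hmox2* had a difference of 0.31 that did not pass the test (adjusted p = 0.108).

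Among the superoxide dismutases, *Sod1* (chromosome 16, 90220754 to 90226329, plus strand) encodes the copper and zinc enzyme of the cytosol. It measured 376, 422 and 385 TPM in the embryo and 978, 1007 and 845 TPM in the adult, and the lowest adult sample was 2.0 times the highest embryonic sample. The difference was 1.25 ± 0.12 (adjusted p = 7.8e-05), a 2.39-fold ratio of means. One other annotated gene, not among the rows used here, matched 72.5% of the *Sod1* transcript at 95% identity or more, so reads may be shared with it.

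*Sod2* (chromosome 17, 13006846 to 13040063, plus strand), the manganese enzyme of mitochondria, measured 25.2, 18.9 and 23.7 TPM in embryonic samples and 110, 79.8 and 84.8 TPM in adult samples. The adult samples stood clear of the embryonic ones by 3.17 times. The difference was 1.97 ± 0.198 (adjusted p = 0.0001), a 4.04-fold ratio of means. Among the closest patterns by the same measure were those of *Dst* (0.101), *Lamtor4* (0.105), *Arhgef19* (0.111) and *Slc43a3* (0.124).

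*Sod3* (chromosome 5, 52363791 to 52371418, plus strand), the extracellular dismutase, measured 7.39, 17.4 and 15.4 TPM before birth and 1390.8, 1875.3 and 1266.9 TPM in the adult. The embryonic samples were all low, with replicate 1 below the others, and the lowest adult sample was 72.6 times the highest of them. The difference was 6.77 ± 0.289 (adjusted p = 1e-06), a 113-fold ratio of means, and 9 of the tested genes had a larger rise. *Sod3* went from rank 7588 to rank 54 among all genes by mean TPM.

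The makeup of the dismutase RNA was therefore compared within each sample, where a scaling factor cancels. *Sod1* held 92.0%, 92.1% and 90.8% of the summed TPM of the 3 genes in the embryo and 39.5%, 34.0% and 38.5% in the adult. *Sod3* held 1.81%, 3.8% and 3.63% in the embryo and 56.1%, 63.3% and 57.7% in the adult. The stages were separate for both (exact two-sided permutation test, p = 0.1, the smallest that 3 samples against 3 allow). The share of *Sod2* was 5.29% ± 1.05 (SD, n = 3) in the embryo and 3.66% ± 0.88 in the adult, with overlapping samples (exact permutation p = 0.2).

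**Figure D2:**
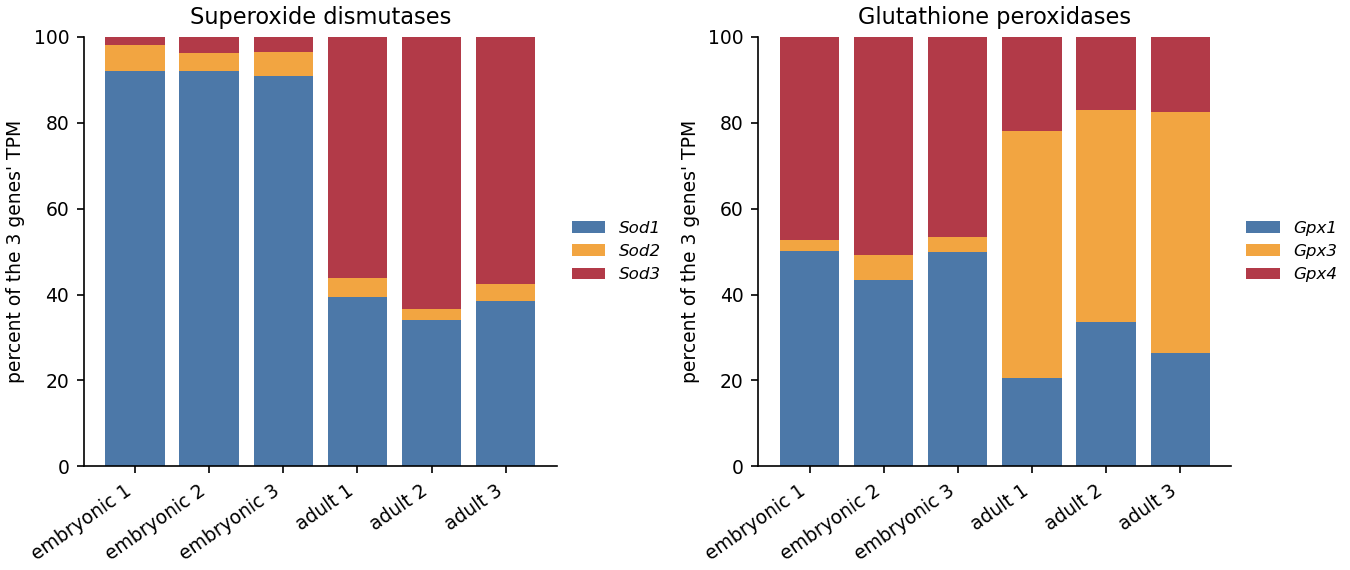
Percent of the summed TPM held by each gene in the 6 samples, for the superoxide dismutases at the left and the 3 glutathione peroxidases at the right. *Sod1* fills over 90% of the embryonic dismutase bars, whereas *Sod3* holds 56.1% to 63.3% of the adult bars and *Gpx3* 49.4% to 57.5% of the adult peroxidase bars.

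Of the enzymes that remove peroxide, *Cat* (chromosome 2, 103453849 to 103485160, minus strand), the catalase of peroxisomes, measured 37.9, 39.6 and 35.1 TPM in the embryo and 139, 169 and 132 TPM in the adult. Each adult sample was at least 3.33 times the highest embryonic sample. The difference was 1.93 ± 0.155 (adjusted p = 3e-05), a 3.91-fold ratio of means.

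*Gpx1* (chromosome 9, 108338903 to 108340343, plus strand), the ubiquitous peroxidase of cytosol and mitochondria, measured 160, 165 and 160 TPM in the embryo and 240, 288 and 321 TPM in the adult. The embryonic samples varied by 1.64% and the adult samples by 14.4% (coefficient of variation), and the stages did not overlap. The difference was 0.79 ± 0.136 (adjusted p = 0.00181), a 1.75-fold ratio of means.

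*Gpx3* (chromosome 11, 54902453 to 54910377, plus strand), the secreted peroxidase found in plasma, measured 7.94, 22.2 and 11.4 TPM before birth and 675, 424 and 682 TPM in the adult. Embryonic samples spread most here, with a coefficient of variation of 53.8%, yet the lowest adult sample was 19.0 times the highest embryonic one. The difference was 5.40 ± 0.337 (adjusted p = 7.9e-06), a 42.8-fold ratio of means, and 33 tested genes had a larger rise.

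*Gpx4* (chromosome 10, 80047166 to 80056439, plus strand), which reduces lipid hydroperoxides in membranes and so protects cells from ferroptosis, measured 152, 193 and 150 TPM in the embryo and 259, 146 and 214 TPM in the adult. Adult replicate 2 lay below all embryonic samples, and the stages overlapped. The difference was 0.29 ± 0.213 (adjusted p = 0.295), with a 95% interval of -0.19 to 0.77. Without adult replicate 2 the difference was 0.52 and passed the test (adjusted p = 0.0411), and with adult replicate 2 as the 1 adult sample it was -0.17 (adjusted p = 0.511, with the spread taken from the embryonic samples). Annotated genes outside the rows used here, 2 in number, matched 73.7% of the *Gpx4* transcript at 95% identity or more.

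Within the 3 peroxidases, *Gpx3* held 2.48%, 5.85% and 3.54% of the summed TPM in the embryo and 57.5%, 49.4% and 56.0% in the adult. *Gpx1* went from 47.7% ± 3.77 (SD, n = 3) to 26.8% ± 6.6 and *Gpx4* from 48.3% ± 2.16 to 18.9% ± 2.76. The stages were separate for all 3 shares (exact two-sided permutation test, p = 0.1 each, the smallest possible). The share of *Gpx4* was thus lower in every adult sample, although its TPM did not pass the test.

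By mean TPM the embryonic order was *Hmox1* (424), *Sod1* (394), *Gpx4* (165), *Gpx1* (162), *Nfe2l2* (110), *Cat* (37.5), *Sod2* (22.6), *Gpx3* (13.9), *Sod3* (13.4) and *Nqo1* (6.04). Neighbouring genes overlapped in their samples for *Hmox1* and *Sod1*, *Gpx4* and *Gpx1*, *Sod2* and *Gpx3*, and *Gpx3* and *Sod3*. The adult order was *Hmox1* (3609.7), *Sod3* (1511.0), *Sod1* (943), *Gpx3* (594), *Gpx1* (283), *Gpx4* (206), *Nfe2l2* (169), *Cat* (147), *Nqo1* (143) and *Sod2* (91.4). The first 4 were separate from their neighbours, the genes from *Gpx1* to *Nqo1* formed a run of overlapping neighbours, and *Sod2* stood below them. Adult replicate 2 was the highest adult sample for 4 members (*Sod1*, *Sod3*, *Cat* and *Nfe2l2*) and the lowest for 5 (*Sod2*, *Gpx3*, *Gpx4*, *Hmox1* and *Nqo1*).

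**Figure D3:**
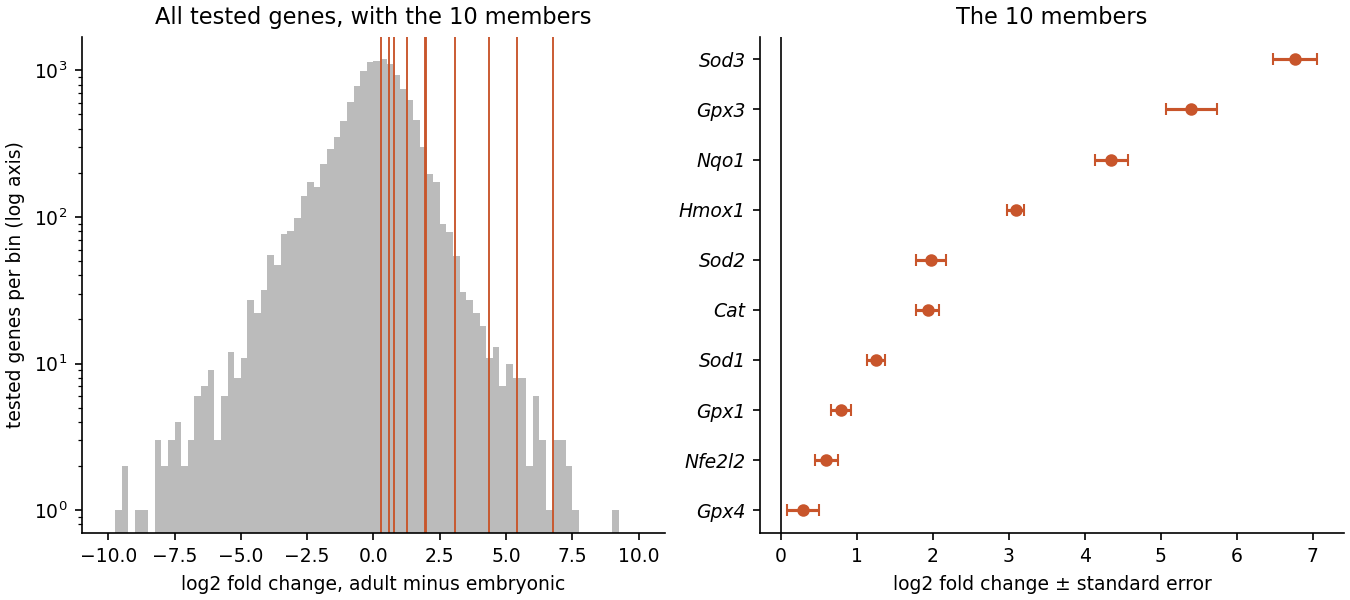
Difference between adult and embryonic cells on the log2(TPM + 1) scale, at the left as a histogram of the 13125 tested genes (log axis) with a line for each of the 10 genes, and at the right for each gene with the standard error of the limma fit. *Sod3* (6.77), *Gpx3* (5.40) and *Nqo1* (4.35) lie farthest from 0, and *Gpx4* (0.29) is the gene that did not pass the test.

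The sorted cells were checked against marker genes. All samples expressed chondrocyte genes, with *Sox9* at 392 to 465 TPM in the embryo and 589 to 901 TPM in the adult and *Acan* at 1018.3 to 1306.0 and 1264.9 to 2672.4 TPM. Of 11 chondrocyte markers 3 were higher in the adult and 7 lower. *Prg4*, the lubricin gene of the cartilage surface, went from a mean of 160 to 25267.8 TPM and the growth cartilage gene *Matn1* from 819 TPM to values listed at 0. The collagen genes *Col2a1* (a mean of 14689.3 to 4705.9 TPM) and *Col9a1* (1930.7 to 44.8 TPM) were among those lower. The 10 cell cycle genes were all lower in the adult, with sums of 956 to 998 TPM before birth and 219 to 273 TPM in the adult. Of 7 osteoblast markers 4 were higher (57.1%, against 23.9% of all tested genes) and 1 lower, with sums of 31.0 to 66.2 and 287 to 484 TPM. *Ibsp* went from a mean of 11.6 to 287 TPM and the alkaline phosphatase gene *Alpl* from 15.9 to 35.8 TPM. *Dmp1* was lower (12.3 to 1.21 TPM), and *Phex* and *Sp7* did not pass. *Bglap* was listed at 0 in the embryo, and near-identical copies matched 99.8% of its transcript. Tendon and fibroblast markers (0 higher and 6 lower of 8 tested), smooth muscle and pericyte markers (0 and 5 of 6) and endothelial markers (0 and 1 of 3) were lower or not called. Erythroid (4 tested), muscle (4) and adipocyte markers (1) held 0 calls (at an unadjusted p under 0.05, 1 muscle gene was lower), and the erythroid sum was highest in embryonic replicate 1, at 257 TPM, against 7.77 and 8.48 TPM in the others. Their part in the differences of the 10 genes was not tested.

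Some macrophage and leukocyte markers were higher in the adult despite the sort. Of 16 genes 9 were tested and 5 were higher (55.6%, against 23.9% of all tested genes), none lower. Of the 4 with at least 1 TPM at both stages 2 were higher (50%, against 24.5% of all such genes). *Csf1r* averaged 0.684 TPM in the embryo and 0.523 TPM in the adult. The list summed to 11.8, 18.9 and 20.9 TPM in the embryo and 569, 478 and 498 TPM in the adult. In the adult most of it was *Cd14*, without which the sums were 10.6 to 14.7 TPM in the embryo and 213, 20.4 and 133 TPM in the adult. *C1qa* and *Cd3e* were listed at 0 in every sample, and *Ptprc*, which encodes CD45, was listed at 0 in adult replicate 2 and at 2.29 and 1.03 TPM in the others. The neutrophil genes *S100a8* and *S100a9* were above 0 in adult replicates 1 and 3 alone. With those replicates left out, an alternative added after the data were seen, the adult group is 1 sample, which is assumed to vary as the embryonic samples do. In that fit the median difference was 1.96 for the members and 0.11 for all tested genes. Adult replicate 2 by itself held 3579.8 TPM of *Hmox1*, 1875.3 of *Sod3* and 119 of *Nqo1*. It was not free of the markers, with 458 TPM of *Cd14*, more than any other sample, and 17.2 TPM of *Cd68*, above every embryonic sample. The part of leukocyte RNA in the differences of the members was not tested.

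Of 16 genes that control Nrf2, 5 were higher in adult cells (31.2%, against 23.9% of all tested genes), 4 were lower and 7 did not pass, with a median of 0.01. These shares lay near those of all genes, and the calls are given gene by gene. *Keap1*, the adaptor that presents Nrf2 for degradation, measured 21.5, 21.2 and 23.1 TPM in the embryo and 56.5, 55.6 and 45.0 TPM in the adult (difference 1.21, adjusted p = 0.00104). The adult samples were separate from and above the embryonic ones. *Sqstm1*, encoding p62, which binds Keap1 and takes it to autophagy, measured 831, 842 and 821 TPM in the embryo and 4145.6, 4224.5 and 4183.9 TPM in the adult (2.33, adjusted p = 1.5e-06).

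The ligase scaffold gene *Cul3* was lower in the adult, at 366, 323 and 382 TPM in the embryo and 217, 215 and 182 TPM in the adult (-0.80, adjusted p = 0.00133). The repressor *Bach1* fell from 121, 94.5 and 104 TPM to 25.4, 38.9 and 31.1 TPM (-1.73, adjusted p = 0.0002). All adult samples were below all embryonic samples for both. Its relative *Bach2* fell from a mean of 23.5 to 4.11 TPM (-2.29, adjusted p = 0.00103). The small Maf partners differed among themselves: *Maff* fell (-1.55, adjusted p = 0.00068), and *Mafg* (0.79, adjusted p = 0.00292) and *Mafk* (0.97, adjusted p = 0.00041) rose. *Nfe2l1*, a relative of Nrf2 known for controlling proteasome genes, rose from a mean of 167 to 463 TPM (1.46, adjusted p = 8.5e-05).

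Within samples, the ratio of *Nfe2l2* to *Keap1* TPM was 4.99, 5.16 and 4.91 in the embryo and 2.46, 3.42 and 3.96 in the adult (exact two-sided permutation test, p = 0.1, the smallest possible). It was lower in all adult samples. The ratio of *Bach1* to *Nfe2l2*, chosen after the values were seen, was 0.865 to 1.13 in the embryo and 0.174 to 0.205 in the adult.

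Of 35 known Nrf2 targets other than the members, 29 were tested, of which 25 were higher in adult cells and 1 lower, with a median of 2.49. With adult replicate 2 as the 1 adult sample no count is given, because the spread would then rest on the embryonic samples. To set aside genes tested only because 1 stage was high, the list was limited to the 28 genes with at least 1 TPM at both stages: 24 were higher and 1 lower, with a median of 2.44, whereas 24.5% of the 11641 such genes in all were higher and their median was 0.15. These targets are also named from textbook knowledge of the pathway in other tissues, and several stand in the lists of thioredoxin, glutathione, pentose phosphate and iron genes as well. The list was chosen with earlier results of these data known, so its counts are not an independent test. *Ugdh*, which makes the UDP-glucuronate used for glycosaminoglycans as well as for conjugation, was the 1 that fell (-0.64, adjusted p = 0.00402).

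*Osgin1*, an oxidative stress inducible growth inhibitor, rose from a mean of 2.31 to 55.4 TPM (4.10, adjusted p = 5.7e-05). *Fth1*, the ferritin heavy chain, which stores the iron that haem breakdown releases, measured 421, 482 and 434 TPM in the embryo and 13591.2, 8363.6 and 11178.3 TPM in the adult (4.60, adjusted p = 6.5e-07). The ferritin light chain *Ftl1* measured 1284.3, 1418.6 and 1452.0 TPM in the embryo and 3721.9, 3609.5 and 4110.9 TPM in the adult (1.46, adjusted p = 3.8e-05). The light chain was the more abundant one in the embryo and the heavy chain in the adult, with a ratio of heavy to light of 0.299 to 0.34 and 2.32 to 3.65, a comparison chosen after the values were seen. Annotated copies outside the rows used here matched 94.0% of the *Ftl1* transcript and 0% of *Fth1*.

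Of the 30 targets with a RefSeq promoter, 8 held the element core (26.7%, against 11.5% of 27025 genes). Among these were *Ugdh*, which fell, and *Abcc2* and *Gsta3*, which were not tested for a difference. Of the 21 that rose, 5 held the core. The 5 are shown with 10 bases on either side, 1 window a gene, because they are the matches in targets that rose; *Abcc4* held a further match before another of its starts. The windows lie in GRCm38.p6 at chr3:122245413-122245441 (*Gclm*, plus strand), chr10:82859104-82859132 (*Txnrd1*, plus strand), chr4:116685456-116685484 (*Prdx1*, plus strand), chrX:74428919-74428947 (*G6pdx*, minus strand) and chr14:118676936-118676964 (*Abcc4*, minus strand). Capitals mark the core or its reverse complement, and that of *Prdx1* overlaps an AP-1 site.
Gclm: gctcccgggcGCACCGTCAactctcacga
Txnrd1: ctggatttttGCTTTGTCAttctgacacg
Prdx1: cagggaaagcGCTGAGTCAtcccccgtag
G6pdx: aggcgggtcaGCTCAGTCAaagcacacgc
Abcc4: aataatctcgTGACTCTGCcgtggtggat

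Glutathione, the substrate of the glutathione peroxidases, is made and recycled by a set of 12 tested genes, of which 8 were higher in adult cells and 2 lower. Of the 10 with at least 1 TPM at both stages, 8 were higher (80%, against 24.5% of all such genes) and 0 lower. *Gclm*, the modifier subunit of the enzyme that sets the rate of synthesis, measured 62.7, 72.8 and 95.5 TPM in the embryo and 370, 463 and 506 TPM in the adult (2.53, adjusted p = 1.9e-05). Glutathione synthetase *Gss* rose from a mean of 21.3 to 111 TPM (2.33, adjusted p = 6.8e-05) and glutathione reductase *Gsr* from 36.9 to 162 TPM (2.09, adjusted p = 5e-05). The gamma-glutamyl transferase genes *Ggt5*, listed at 0 in every adult sample against a mean of 5.33 TPM, and *Ggt7*, listed at 0 in 2 adult samples and at 0.453 TPM in the other against a mean of 3.26 TPM, were lower. With a mean of at least 5 TPM required, the list held 0 lower calls.

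NADPH, which keeps glutathione and thioredoxin reduced, is supplied by 11 tested genes, of which 4 were higher and 1 lower. The share higher was 36.4%, against 23.9% of all tested genes. The pentose phosphate genes *Pgd* (a mean of 33.3 to 510 TPM, 3.90, adjusted p = 1.1e-06), *Taldo1* (52.3 to 517 TPM, 3.27, adjusted p = 0.0001) and *G6pdx* (17.5 to 107 TPM, 2.56, adjusted p = 7.9e-05) rose. The mitochondrial NADPH source *Idh2* fell from a mean of 172 to 15.6 TPM (-3.52, adjusted p = 9.3e-05), with all adult samples below all embryonic ones.

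The other peroxidases were divided. Both tested members of the remaining glutathione peroxidases, *Gpx7* (-1.67, adjusted p = 0.00071) and *Gpx8* (-0.71, adjusted p = 0.0419), which sit in the endoplasmic reticulum, were lower in adult cells. *Gpx8* measured 110, 135 and 126 TPM in the embryo and 69.8, 54.0 and 111 TPM in the adult, with overlapping stages, and 1 of the 2 calls was lost with no filter on low values, with the 20 highest genes left out, after quantile normalization and under eBayes without trend. Of 6 peroxiredoxins 4 were higher (66.7%, against 23.9% of all tested genes) and 2 lower. *Prdx6* (1.44, adjusted p = 0.00017), *Prdx3* of mitochondria (0.99, adjusted p = 0.00468) and *Prdx5* (0.69, adjusted p = 0.0307) rose. *Prdx4* of the endoplasmic reticulum (-1.86, adjusted p = 0.00077) and *Prdx2* (-0.49, adjusted p = 0.0143) fell. Of 14 thioredoxin genes 5 were higher (35.7%, against 23.9% of all tested genes) and 1 lower. Those higher included *Glrx2* (1.76, adjusted p = 0.00111), *Txn1* (1.16, adjusted p = 0.00136) and *Txn2* (1.08, adjusted p = 0.00045). *Sesn2*, a stress-induced sestrin, fell from a mean of 102 to 40.0 TPM (-1.36, adjusted p = 0.0007).

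Of 19 tested glutathione S-transferases, which couple glutathione to electrophiles, 6 were higher and 1 lower, with a median of 0.19. Of the 16 with at least 1 TPM at both stages, 4 (25%) were higher, against 24.5% of all such genes. *Gstp1* rose from a mean of 83.8 to 870 TPM (3.35, adjusted p = 5.5e-06). *Gsta1* and *Gstp2* also passed, but *Gsta1* shares near-identical sequence with other genes, *Gstp2* resembles *Gstp1*, and both were listed at 0 in at least 2 embryonic samples, so their differences are uncertain. *Gstk1* was lower (-1.76, adjusted p = 0.0344), and the list held 0 lower calls with a pseudocount of 0.1, with no filter on low values and with a mean of at least 5 TPM required.

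**Figure D4:**
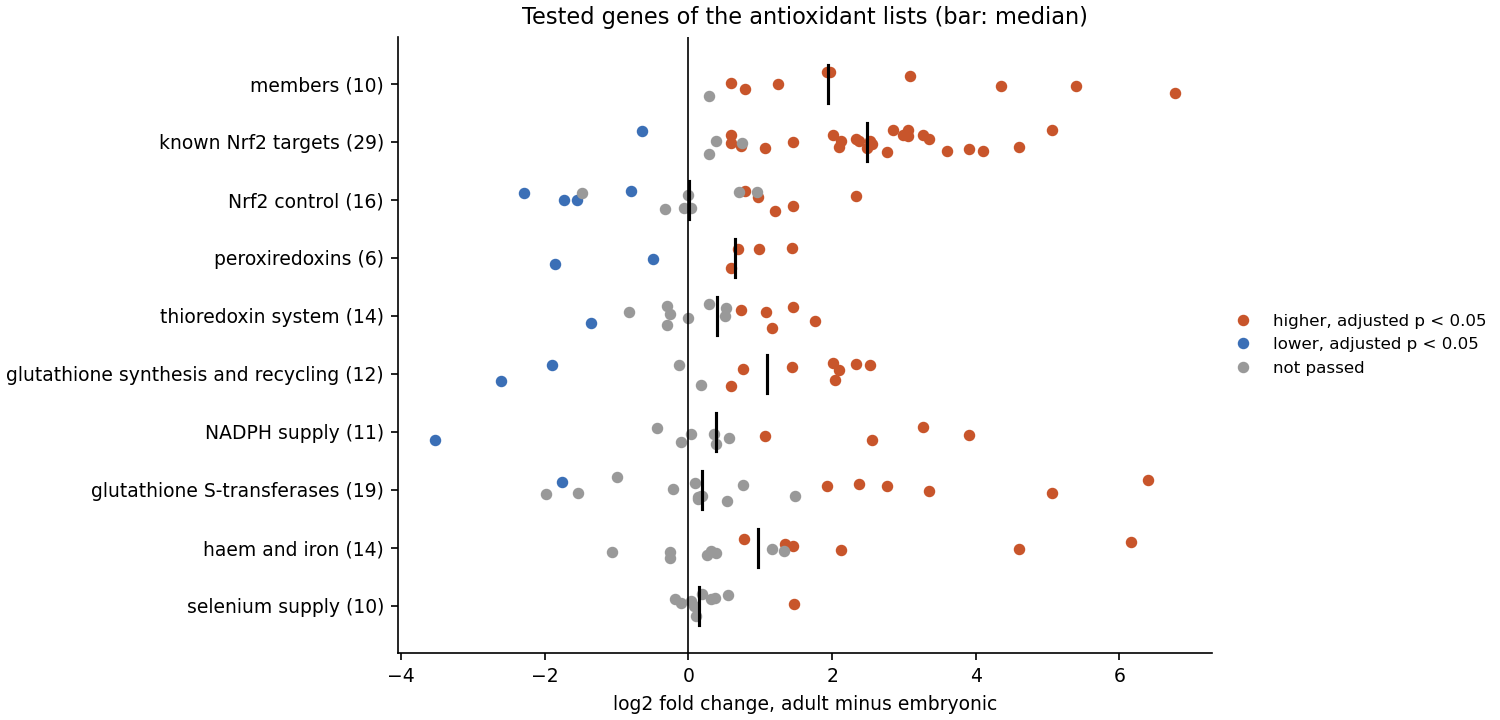
Difference between adult and embryonic cells on the log2(TPM + 1) scale for the tested genes of each list (number in brackets), coloured by call, with the median as a bar. Known Nrf2 targets lie mostly to the right of 0 (25 of 29 higher, median 2.49), whereas the genes that control Nrf2 lie on both sides (5 higher and 4 lower of 16).

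Haem and iron genes, which act beside *Hmox1*, were higher for 6 of 14 (42.9%, against 23.9% of all tested genes) and lower for 0. *Cp*, the copper ferroxidase ceruloplasmin, rose from a mean of 3.61 to 318 TPM (6.16, adjusted p = 1.7e-06), and *Blvrb*, a biliverdin reductase, from 17.9 to 84.8 TPM (2.12, adjusted p = 0.00286). Selenium supply, on which the selenocysteine enzymes *Gpx1*, *Gpx3* and *Gpx4* depend, was higher for 1 of 10 genes (10%, against 23.9% of all tested genes). This was *Secisbp2* (1.47, adjusted p = 0.00063), which recodes the selenocysteine codon. Across the 14 lists around the members, 148 of 172 genes were tested, of which 62 were higher and 17 lower. In either direction 53.4% were called, against 45.3% of all tested genes.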

How the data were processed

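RNA-seq libraries came from 3 embryonic and 3 adult samples, grouped by their labels. For the deposited table, the authors aligned reads to GRCm38 with RefSeq annotations, took transcript levels from RSEM (version not given in the sources used here) and wrote log2 values of TPM + 1 for each gene. The labels name a Kapa mRNA-Seq kit, and the methods describe random and poly(T) primed cDNA from a Nugen Ovation V2 kit with a Kapa LTP library. That kit is not described as keeping strand. TPM keeps no depth, so precision rests on the spread between samples. EBSeq, which the methods name, needs counts and was not used here.

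Differences, adult minus embryonic, were tested by lmFit and eBayes with trend (limma 3.58.1, R 4.3.3) on the deposited values, for the 13125 genes whose mean reached 1 TPM, at a Benjamini-Hochberg adjusted p under 0.05. The fit was also run on simulated data in which few genes changed. Many genes were called here, so that run does not show how the fit behaves on these data. Tables and figures used Python 3.11.15, pandas 2.3.3, numpy 2.4.6, scipy 1.17.1 and matplotlib 3.10.9. Symbols and gene positions are those of GENCODE M21, where 21899 identifiers had a symbol of their own, and promoters are RefSeq. Near-identical copies were sought with BLAST+ at 95% identity or more over at least 50 bases. A value of 0 need not mean an absent transcript, so genes listed at 0 in most samples of a stage are given without a fold.

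The members and lists were chosen with earlier results of these data known. Named were the 10 members, up to 3 genes with the largest rise and 3 with the largest fall of each list among those past the threshold without overlap of the stages, defining markers, and the 5 genes closest in pattern to *Nfe2l2* and *Sod2*, of which 1 is not reported here. *Cul3*, *Mafg*, *Mafk*, *Hmox2*, *Ftl1*, *Gpx8*, *Ccs*, *Slc31a1*, *Atp7a* and the genes named for their element match were added to these once their values had been seen. The alternatives were another pseudocount, filter, scaling, variance model or threshold, a replicate block, and each sample left out in turn.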

Additional observations from a re-analysis of the deposited data

How the results depend on the processing

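Of the 10 members, 9 were higher and 0 lower under the other pseudocount, filters, scalings and variance models, and under the replicate block. *Nfe2l2* (0.60, adjusted p = 0.0104) was not called at an adjusted p under 0.01. The difference of *Gpx4* ranged from 0.11 to 0.52 with 1 sample left out, and was 0.52 without adult replicate 2 (adjusted p = 0.0411), which made 10 members higher, and -0.17 without adult replicates 1 and 3 (adjusted p = 0.511), a setting chosen after the data were seen. Over the 17 alternatives the limma difference of *Nfe2l2* ranged from 0.46 to 0.78 (adjusted p = 0.0034 to 0.0459) and that of *Gpx4* from -0.17 to 0.52 (adjusted p = 0.0411 to 0.693). Over all genes, 1855 were higher and 1863 lower at an adjusted p under 0.01, and 1761 were higher and 2268 lower without adult replicates 1 and 3, where 41 list genes were higher and the adult group is 1 sample. Of the genes called, 52.8% were higher (3140 against 2809 lower). The median of all genes, 0.16 as deposited, was 0.03 after median-of-ratios scaling (2613 higher and 3238 lower), and that of the members was then 1.80. With the replicate number as a block, 2871 genes were higher and 2559 lower. Same-numbered samples did not deviate together (r across genes -0.0223 to -0.00884), so the numbers are only names. Depth is unknown, and with 3 samples a stage exact tests cannot go below 0.1.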

Other observations

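Other genes of oxidant metabolism were also measured. Copper supply, on which *Sod1* and *Sod3* depend, was higher for 3 of 6 tested genes (50%, against 23.9% of all tested genes) and lower for 0. The copper chaperone *Atox1* rose from a mean of 49.9 to 267 TPM (limma difference 2.52, adjusted p = 0.00041), and *Slc31a2* (1.82, adjusted p = 0.0139) and *Cox17* (1.58, adjusted p = 0.00206) rose too. *Ccs* (0.02, adjusted p = 0.967), *Slc31a1* (-0.40, adjusted p = 0.285) and *Atp7a* (-0.38, adjusted p = 0.287) did not pass the test. Both tested metallothioneins, which bind zinc and copper, were higher. *Mt1* measured 123, 203 and 149 TPM in the embryo and 1328.4, 602 and 1172.0 TPM in the adult (2.65, adjusted p = 0.00018), and *Mt2* rose from a mean of 83.5 to 439 TPM (2.28, adjusted p = 0.00066). Adult replicate 2 was the lowest adult sample for both, as it was for 5 of the members.

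Of 9 tested producers of superoxide or nitric oxide, 3 were higher in adult cells and 2 lower. Of the 6 with at least 1 TPM at both stages 1 was higher (16.7%, against 24.5% of all such genes) and 2 lower. *Nos2*, the inducible nitric oxide synthase, was listed at 0 in 2 embryonic samples and at 0.392 TPM in the third, and measured 124, 147 and 123 TPM in the adult. *Xdh*, xanthine dehydrogenase, measured at most 0.514 TPM in the embryo and 13.8, 11.6 and 42.6 TPM in the adult. The oxidase subunit *Ncf1* was higher (1.98, adjusted p = 0.0291), at 21.1, 4.25 and 14.2 TPM in the adult, lowest in the replicate without *S100a8*. The subunit *Cyba* (-0.77, adjusted p = 0.0374) and the GTPase *Rac1* (-0.58, adjusted p = 0.00438) were lower, and 1 of these 2 calls was lost with no filter on low values, without the 20 highest genes and under eBayes without trend.

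Peroxisome assembly genes, which build the organelle that holds catalase, were higher for 8 of 18 (44.4%, against 23.9% of all tested genes) and lower for 1. *Pex16* (2.16, adjusted p = 0.00501), *Pex6* (1.59, adjusted p = 0.00575) and *Pex2* (1.46, adjusted p = 0.0144) rose, and the import receptor *Pex5* (-0.60, adjusted p = 0.0292), which carries catalase into the organelle, fell. The list held 0 lower calls without the 20 highest genes and under eBayes without trend, and 5 higher calls without adult replicate 1.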
